A study of Mus musculus with 12 samples.

Results

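Peaks that the authors' annotation called intergenic were examined in 4 lists of chimeric small RNA:target RNA peaks from adult mouse forebrain, after peaks at the Cdr1 locus and around Gm42418 were set aside. A peak is a short genomic interval on 1 strand where reads of a target RNA were found joined to a named small RNA. Of 250567 peaks in all lists, 12555 met this rule. They were 32 of 766 peaks in the excitatory neuron list, 152 of 3611 in the list of forebrain reps 5-7, 12370 of 246180 in the list of forebrain reps 1-4, and 1 of 10 in the IgG list. The rule left out 16, 34, 333 and 0 peaks on the plus strand at the Cdr1 locus of chromosome X and 26, 123, 882 and 0 peaks within 5000 bases of chr17:39846959-39848788, the Gm42418 interval, in the same order of lists. All positions are in the mm10 build.

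The excitatory neuron list came from 3 libraries in which Argonaute was pulled down with anti-myc from forebrain of mice that carried Camk2a-Cre/ERT2 and a ROSA26 allele of tagged Ago2, so that the tag was made where the Camk2a promoter drives Cre. The lists of reps 5-7 (3 libraries) and reps 1-4 (4 libraries) came from anti-Ago2 pull-down of whole forebrain, and the IgG list came from 2 control libraries. Every sample carries the label C57BL/6, age 10 to 12 weeks, and tamoxifen of 2 mg daily for 5 days with 14 to 21 days before harvest. The labels do not say which mice of the other pull-downs bore the tagged allele. Each list pools its libraries, so it is a single observation, and every interval and p-value below covers counting error only and treats overlapping peaks as independent. Depth was stated as 61 to 138 M reads per sample and not library by library. On 7 excitatory marker genes the lists held 14, 25, 652 and 0 peaks, those of the excitatory list all in 1 gene, and on 6 astrocyte marker genes 0, 35, 913 and 0 peaks, for excitatory neurons, reps 5-7, reps 1-4 and IgG. In the same order, 6 oligodendrocyte marker genes held 4, 13, 315 and 0 peaks, the 4 of the excitatory list in 1 gene. On 6 inhibitory neuron marker genes there were 0, 4, 96 and 0 peaks. The 5 microglial marker genes held 0, 0, 21 and 0, and the 4 vascular ones 0, 0, 52 and 0.

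Argonaute proteins hold a microRNA and use its seed, bases 2 to 8 from the 5′ end, to pair with a target RNA. Ligating both RNAs while they sit in Argonaute gives a read that names the small RNA and its target together. Most known microRNA targets lie in mature messenger RNAs, but such reads also fall in introns, in noncoding RNAs and in places with no annotated transcript. A peak is called intergenic relative to an annotation, so a transcript that is longer than its annotated form also gives intergenic peaks.

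Mature sequences of leading small RNAs other than miR-124-3p are shown because each recurs in the stretches described below. Capitals mark the seed. The sequences are from RefSeq for GRCm38.p6, which holds 245 of the 303 small RNA names found.
miR-26a-5p: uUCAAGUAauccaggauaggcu
miR-9-5p: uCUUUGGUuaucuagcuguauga
miR-128-3p: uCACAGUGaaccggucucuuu
miR-125a-5p: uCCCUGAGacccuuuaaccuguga
miR-125b-5p: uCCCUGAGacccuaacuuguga
miR-29a-3p: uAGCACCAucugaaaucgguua
miR-29b-3p: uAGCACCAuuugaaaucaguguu
let-7a-5p: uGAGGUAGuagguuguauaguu
let-7c-5p: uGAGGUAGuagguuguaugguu
miR-30c-5p: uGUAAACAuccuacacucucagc
miR-690: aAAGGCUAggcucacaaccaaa
Within these, miR-125a-5p and miR-125b-5p share a seed, as do miR-29a-3p with miR-29b-3p and let-7a-5p with let-7c-5p. miR-124-3p, a neuron-enriched microRNA, had the most intergenic peaks in every list. Its mature sequence was not at hand and is not shown.

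No genome was used, so target sequence could be read only where a peak lay wholly inside a RefSeq promoter window, 250 bases before to 50 bases after a gene start. This held for 19 peaks, all in reps 1-4, of which 11 lay on the gene's own strand. For 11 of the 19 the mature sequence of the paired small RNA was at hand. The rest were all miR-124-3p peaks, whose seed was therefore not searched. In 4 of the 11 the complement of the seed stood in the peak, widened to 30 bases where it was shorter. These 4 are shown 5′ to 3′ on the strand of the peak, with the complement of bases 2 to 8 in capitals.
miR-9-5p near Dbpht2, plus strand of chr12:74297316-74297345: atttaagaaaatACCAAAGactcaaagatt
miR-129-2-3p near Sox4, plus strand of chr13:28953881-28953910: aactttttaaAAGGGCTagaagtacagctg
miR-29a-3p near Arid5b, minus strand of chr10:68278842-68278871: aatcatttTGGTGCTgagggggaggctaga
miR-29b-3p near Cdh9, plus strand of chr15:16728880-16728909: ctgagttaaaagTGGTGCTgaaagagaggc
The Dbpht2 peak had a score of 35 and the other 3 had scores of 5, 3 and 3; the Sox4 peak lay opposite to its gene. Searched on both strands of all 32851 promoter windows, ACCAAAG occurred in 4.23%, AAGGGCT in 5.29% and TGGTGCT in 5.10%. A whole window is longer than the sequence read per peak, which was on 1 strand. These shares are therefore not a rate to set beside the 4 of 11. The motifs do not overlap each other in these peaks, and a match is a description of the letters, not a tested site.

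Intergenic peaks were a small share of each forebrain list. They were 4.18% of peaks in the excitatory neuron list (Wilson 95% interval 2.97 to 5.84), 4.21% in reps 5-7 (3.60 to 4.91) and 5.02% in reps 1-4 (4.94 to 5.11). The excitatory list was 0.847 percentage points below reps 1-4 (interval of the difference -2.05 to 0.815, two-sided Fisher's exact test with Benjamini-Hochberg adjustment over 26 region classes, adjusted p = 0.52), in a comparison where 38.5% of region classes passed 0.05. Reps 5-7 were 0.815 points below reps 1-4 (difference -0.815, interval -1.43 to -0.105, Fisher's exact test, adjusted p = 0.0507), where 46.2% of classes passed. The excitatory list and reps 5-7 differed by -0.0318 points (-1.43 to 1.74, Fisher's exact test, adjusted p = 1.00 over 13 classes), where 38.5% passed. These 3 comparisons share lists. In a bulk pull-down, fewer cells of a type and less RNA per cell cannot be told apart. With distinct sites counted in place of peaks, both lists were lower than reps 1-4 by Fisher's exact test, with differences of -2.21 points for excitatory neurons (adjusted p = 0.024) and -1.34 points for reps 5-7 (adjusted p = 0.00325). With rRNA, Gm42418 and Cdr1 peaks left out of both totals, the difference between reps 5-7 and reps 1-4 was 0.177 points (Fisher's exact test, adjusted p = 0.856).

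The score is the authors' value for each peak; its lowest value was 3, the minimum number of reads in their settings. Scores of intergenic peaks ran from 3 to 68 in excitatory neurons, from 3 to 75 in reps 5-7 and from 3 to 5596 in reps 1-4, with a median of 4 in each of the 3. Other peaks outside rRNA and Cdr1 also had a median of 4 in each list. The median length was 19.5, 24 and 26 bases, against 20, 22 and 23 bases for those other peaks. The median score did not set intergenic peaks apart, and the lists differed in how high the top scores reached.

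Set against RefSeq genes of the same build, many intergenic peaks lay inside a gene after all. In reps 1-4, 7915 of 12370 (64.0%, interval 63.1 to 64.8) fell within the RefSeq span of a gene on their own strand, and another 1356 lay within 10000 bases downstream of one. A further 535 (4.32%) were inside a gene on the opposite strand only, 376 (3.04%) were inside a gene whose strand was not known here, 2049 (16.6%) were outside all spans, 123 (0.994%) were mitochondrial and 16 were on unplaced scaffolds. In the excitatory list 15 of 32 (46.9%, interval 30.9 to 63.6) were in a same-strand span and 13 (40.6%) were outside all spans. In reps 5-7 these were 59 of 152 (38.8%, interval 31.4 to 46.7) and 50 (32.9%). The single IgG peak was outside all spans. The difference in placement between lists was not tested. By summed score, peaks outside all spans held 47.2% in reps 1-4 and those in same-strand spans 36.4%. That order rested on the chromosome 3 stretch described below: without it, a setting chosen after seeing the data, peaks outside all spans held 22.2% of the score and those in same-strand spans 53.7%.

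**Figure D1:**
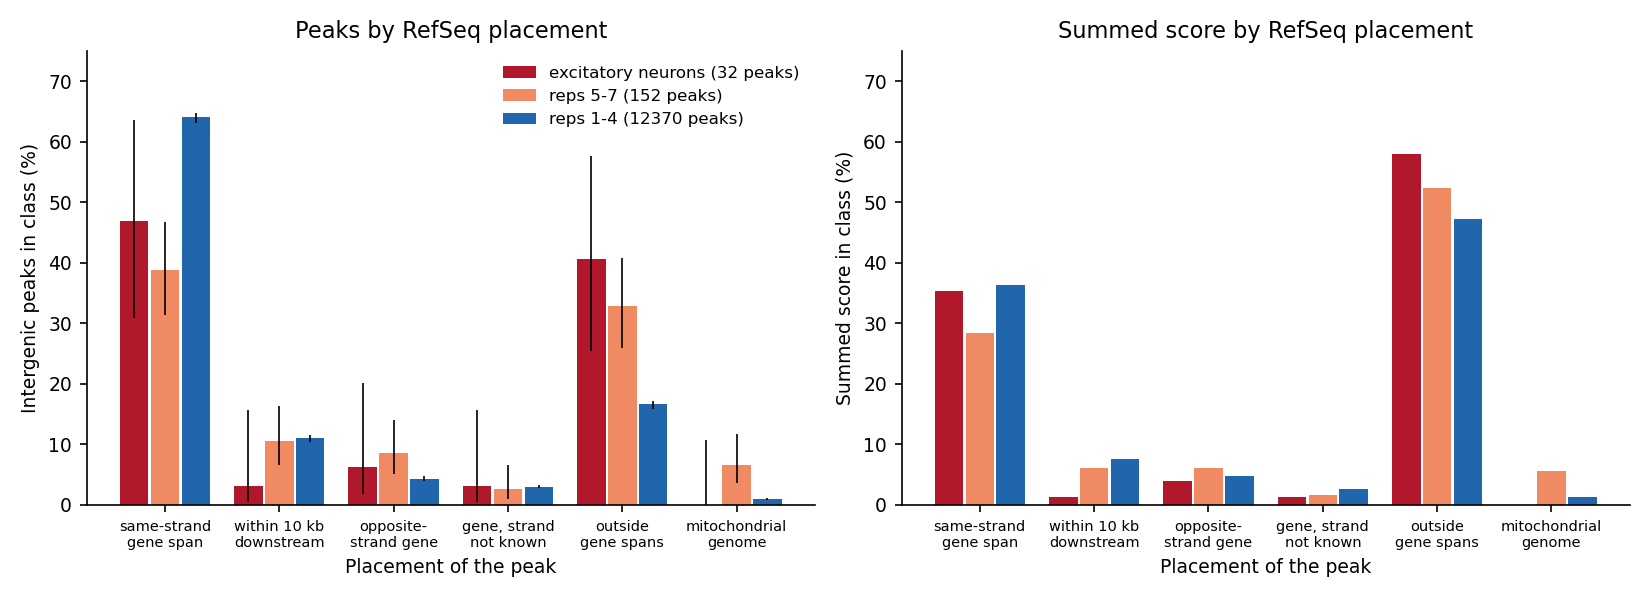
Share of intergenic peaks (left, %) and of their summed score (right, %) in each RefSeq placement class, for excitatory neurons (32 peaks), reps 5-7 (152) and reps 1-4 (12370); lines are Wilson 95% intervals, and 16 scaffold peaks of reps 1-4 and the IgG peak are not drawn. In reps 1-4 the same-strand class holds 64.0% of peaks and 36.4% of score, and the class outside gene spans 16.6% of peaks and 47.2% of score (22.2% without the chromosome 3 stretch).

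The peaks inside same-strand genes of reps 1-4 lay mostly beyond the part of the gene that the authors' annotation named. Of the 7915, 5248 (66.3%) were 5′ of every annotated feature that carried a peak on that gene, 2150 (27.2%) were 3′ of them, 128 (1.62%) were between them and 389 (4.91%) were in genes with no annotated peak. The 5′ group came from 101 genes and the 3′ group from 366. The 5′ peaks had a median length of 30 bases and the 3′ peaks one of 22 bases, with a median score of 4 in both.

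Most of the 5′ group lay in a few long genes. The 8 genes with the most intergenic peaks, Robo2, Rbfox1, Fgf12, Dpp10, Ppargc1a, Ralyl, Cdh12 and Robo1, held 4445 of the 12370 in reps 1-4 (35.9%, interval 35.1 to 36.8), and 4434 of these were 5′ of the annotated features. Robo2 and Robo1 encode Slit receptors of axon guidance. Robo2 (chr16:73891976-75447443, minus strand) had 1614 intergenic peaks against 148 peaks annotated to the gene, 105 of them intronic. They lay between 3623 and 1008207 bases upstream of the gene's 5′-most annotated feature, with scores of at most 60 and a median of 4. Rbfox1, a neuronal splicing regulator, had 841 intergenic against 1022 annotated peaks, 1000 of them intronic. Fgf12, an intracellular partner of sodium channels, had 486 against 178. Dpp10, an auxiliary subunit of Kv4 potassium channels, had 364 against 170. Ppargc1a, a transcriptional coactivator of mitochondrial biogenesis, had 362 against 9, so 97.6% of its peaks in this list were called intergenic. Ralyl had 313 against 15, the cadherin Cdh12 had 259 against 36, and Robo1 had 206 against 71.

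These peaks were spread out, not stacked. Only 80 of the 4445 lay in sites with 5 or more small RNA names. Among all 7915 intergenic peaks of reps 1-4 in same-strand gene spans, 411 (5.19%) lay in such sites. Outside all spans, 732 of 2049 (35.7%) did. Low stacking was thus not particular to these 8 genes. In Robo2 they carried 83 names, led by miR-124-3p with 473 peaks, miR-9-5p with 234 and miR-26a-5p with 156. Robo2, Rbfox1, Fgf12 and Robo1 lie on chromosome 16 and made up 3147 of its 3521 intergenic peaks in reps 1-4 (89.4%). The smaller lists held few of them: 0 of 32 in the excitatory list, which allows a share of up to 9.38%, and 6 of 152 in reps 5-7 (3.95%, interval 1.82 to 8.34). This difference between lists was not tested.

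**Figure D2:**
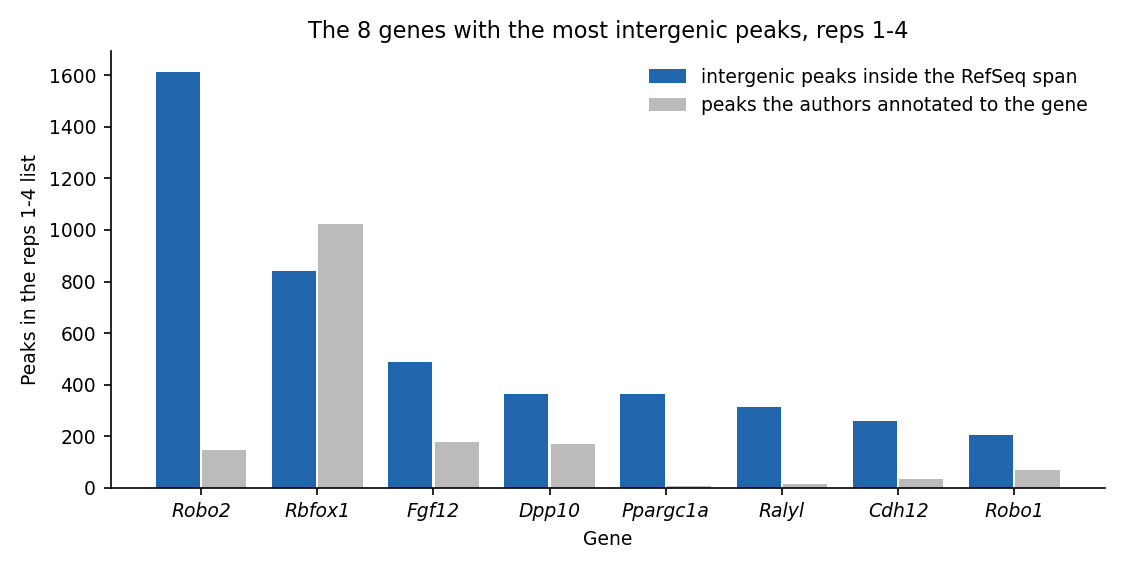
Peaks in the reps 1-4 list for the 8 genes with the most intergenic peaks: blue bars count intergenic peaks inside the gene's RefSeq span on its strand, grey bars count peaks the authors annotated to the gene. Intergenic peaks outnumber annotated ones in each gene except Rbfox1 (841 against 1022).

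The 3′ group came from more genes, and the 9 with the most such peaks are given here. Samd5 had 85 of them, from 3213 to 363114 bases past its 3′-most annotated feature, with scores of at most 10. Igsf9b, an adhesion protein of inhibitory synapses, had 58 against 25 annotated peaks, and Ptar1 had 47 against 10. The adaptor Shc3 had 44 on this side, against 27 annotated peaks, and Xkr6 had 44 against 152. Kcnk9, a background potassium channel, had 41 against 7 and a highest score of 191. Pura, a single-stranded nucleic acid binding protein, had 36 against 27, all within 2453 bases. Kcna1, the Kv1.1 potassium channel, had 33 against 24, between 2 and 3841 bases past the annotated end. Its stretch (chr6:126635791-126640396, minus strand) had 1 peak in excitatory neurons with a score of 4, 1 peak in reps 5-7 with a score of 7 and 35 peaks in reps 1-4, the highest at 176, and miR-124-3p led it in each list. Klf9, a zinc-finger transcription factor, had 32 against 43, between 8 and 1178 bases past the annotated end, led by miR-9-5p with a summed score of 94. The highest scores in this group were thus not at the gene with the most peaks. Next to Lnpep, an aminopeptidase, 69 peaks of reps 1-4 ran from 16 bases past the RefSeq end over 6225 bases (chr17:17521483-17527707, minus strand). A miR-9-3p peak with a score of 356 was the highest there, and reps 5-7 had 3 peaks in it, with scores of up to 8.

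Joined whenever they lay within 1000 bases on a strand, the intergenic peaks of all lists formed 4619 stretches. Reps 1-4 had peaks in 4611 of them, and 2904 of these (63.0%) held a single peak. Another 204 held 10 or more peaks and together 35.4% of all intergenic peaks in that list. The 10 stretches with the most peaks held 1026 peaks (8.29%) but 41.9% of the summed score. Most of that was in a single stretch, on chromosome 3, which alone held 32.2% of the summed score. Stretches with many peaks were long and sparse or short and dense, as the plot of stretch length against small RNA names shows.

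**Figure D3:**
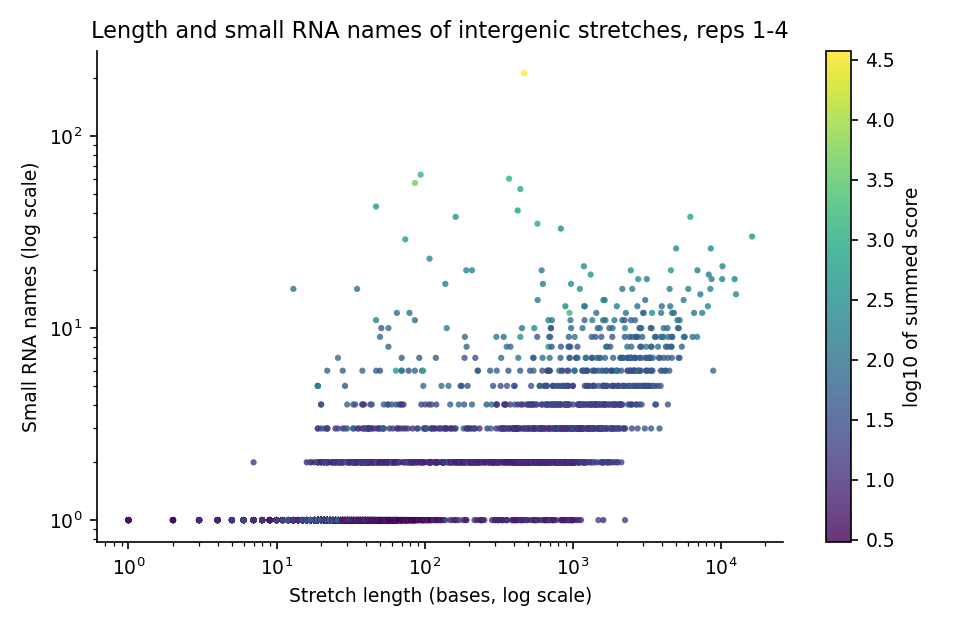
Each point is an intergenic stretch of reps 1-4, with its length in bases (x, log scale), the number of small RNA names in it (y, log scale) and the log10 of its summed score (colour). Most points hold a single name, stretches over 1000 bases reach 38 names, and among short stretches the one on chromosome 3 has the most names, 213 over 470 bases.

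The stretch with the most peaks and names was chr3:5860355-5860824 on the plus strand, 470 bases with no RefSeq gene within 109060 bases and no annotated peak within 50000 bases on the strand. It held 5 peaks in excitatory neurons, 22 in reps 5-7, 382 in reps 1-4 and 0 in IgG. Their summed scores were 30, 213 and 37453, and the last was 32.2% of the score of all intergenic peaks in reps 1-4. The names miR-124-3p, miR-26a-5p, miR-125b-5p and miR-128-3p, made up its peaks in excitatory neurons, against 19 names in reps 5-7 and 213 in reps 1-4. In reps 1-4, miR-26a-5p had a summed score of 11761 and miR-124-3p one of 11728, followed by miR-125b-5p at 1127, miR-128-3p at 966 and miR-126a-3p at 921. The same pair led the smaller lists: miR-124-3p at 13 and miR-26a-5p at 10 in excitatory neurons, and miR-26a-5p at 81 and miR-124-3p at 36 in reps 5-7. The highest peak of the whole class, a miR-26a-5p peak with a score of 5596, covered 6 bases there (chr3:5860631-5860636). All 50 small RNAs with the most other peaks in reps 1-4 were present, and 143 distinct seeds were found among the 179 names with a sequence at hand. Across its 213 names, summed score in the stretch went with the number of other peaks in the list (Spearman's rho 0.769, a description, since names share libraries and depth).

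The only stretch with peaks in all 4 lists was chr16:17222336-17222421 on the plus strand, 86 bases long, 8354 bases from the RefSeq gene Rimbp3 and 36940 bases from the nearest annotated peak on the strand, in the 3′ UTR of Hic2. It held 3 peaks in excitatory neurons, 7 in reps 5-7, 58 in reps 1-4 and 1 in IgG, with highest scores of 68, 54, 1904 and 5. The IgG peak was a miR-124-3p peak at chr16:17222389-17222421 and was the only intergenic peak of that list. miR-125a-5p led in excitatory neurons (68, with miR-124-3p at 10) and in reps 5-7 (54, with miR-124-3p at 52), while in reps 1-4 miR-124-3p had 1917 and miR-125a-5p had 791. All 57 names of reps 1-4 met at the same bases, and rho between summed score and other peaks was 0.328 over them. Peaks that overlapped the IgG peak, whatever their small RNA, were 3 of 32 in excitatory neurons with 36.7% of the summed score, 7 of 152 in reps 5-7 with 16.2%, and 57 of 12370 in reps 1-4 with 3.84%.

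**Figure D4:**
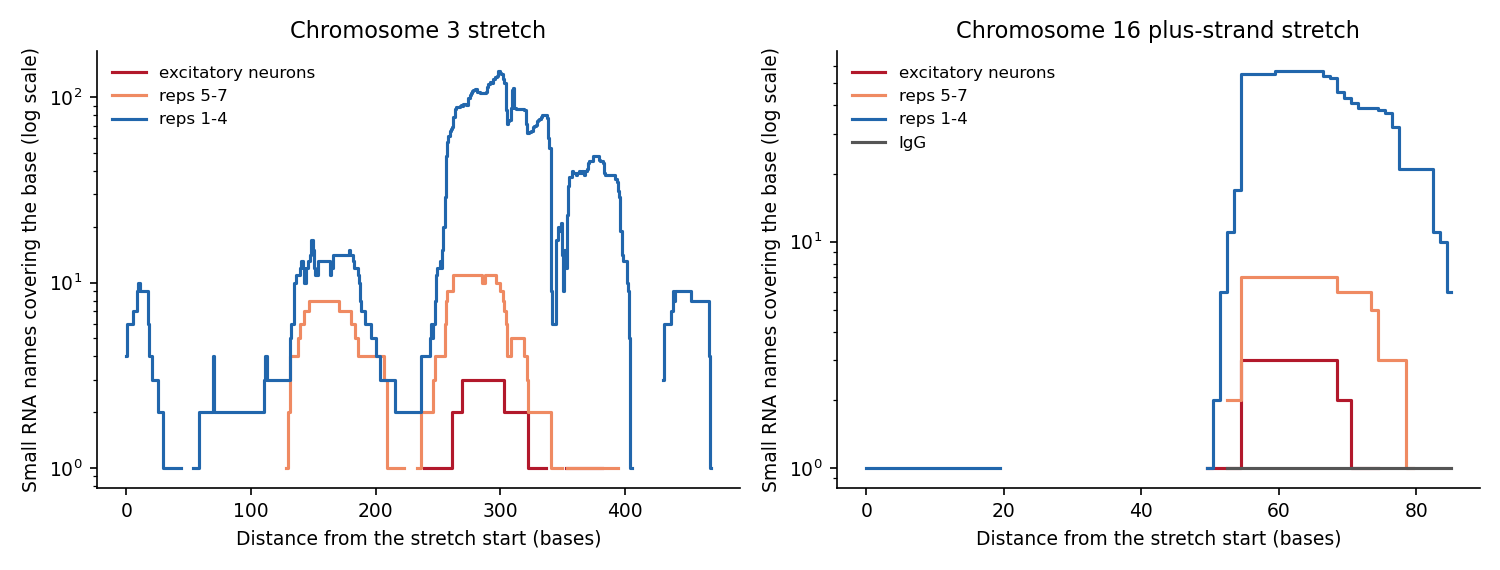
Number of small RNA names whose peaks cover each base (y, log scale) against distance from the stretch start (x, bases) in the chromosome 3 stretch and in the chromosome 16 plus-strand stretch, for excitatory neurons, reps 5-7, reps 1-4 and, on the right, IgG. On the left the highest count is 3 names in excitatory neurons, 11 in reps 5-7 and 139 in reps 1-4, and on the right 3, 7, 57 and 1.

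Other short stretches had the same form at lower scores. Counting both of these, 12 stretches of reps 1-4 were at most 500 bases long and held at least 20 names. These 12 stretches held 911 peaks (7.36%) and 41.8% of the summed score, with 32.2% in the chromosome 3 stretch alone. On chromosome 18, 94 bases (68692070 to 68692163, plus strand) held 0 peaks in excitatory neurons, 3 in reps 5-7 and 63 in reps 1-4, each of the 63 with its own name, with up to 61 names over a single base and a highest score of 217. On chromosome 16, chr16:11143932-11144303 (plus strand, opposite to Zc3h7a) held 60 names in 82 peaks of reps 1-4 and 1 peak in reps 5-7. On chromosome 11, chr11:109011658-109012100 (minus strand, opposite to the noncoding RNA gene Gm36876) held 53 names in 98 peaks, again with 1 peak in reps 5-7. The minus-strand stretch chr2:90395140-90395186 held 43 names in 43 peaks of reps 1-4 over 47 bases. Of the 12, 7 held a peak in reps 5-7 and 2 held one in excitatory neurons. Among all 4611 stretches of reps 1-4, 82 held a peak in reps 5-7 and 14 held one in excitatory neurons. miR-124-3p had the highest summed score in 5 of the 6 stretches with the most names, the chromosome 3 stretch being the exception.

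Of all stretches, 8 had no peak in reps 1-4, and 5 of these held a single peak. The one with the most peaks differed from the rest in size. At chr16:21392580-21392599 on the minus strand, inside the noncoding RNA gene Gm36150, the excitatory list had 9 peaks and reps 5-7 had 10, while reps 1-4 had 0 peaks within 1000 bases. This was 28.1% of the intergenic peaks of excitatory neurons and 6.58% of those of reps 5-7. The 19 peaks shared 2 distinct intervals that differ by a base, and carried 13 names, 6 of them in both lists. The highest scores were for miR-26a-5p, at 20 in excitatory neurons and 19 in reps 5-7, and for miR-16-5p, at 6 and 16.

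In all, 8 stretches had peaks in 3 or more lists. Besides those at chromosome 3, chromosome 16 (17222336), Kcna1 and Pura, they included chr17:24666046-24666071 (plus strand), where miR-181a-5p scored 5 in excitatory neurons, 8 in reps 5-7 and 18 in reps 1-4, joined in reps 1-4 by miR-181c-5p and miR-181b-5p. At chr17:27853085-27853148 (minus strand) miR-690 scored 3, 62 and 424 in the same order. Inside the span of C1ql3, which encodes a secreted synaptic protein, and 1468 bases from its annotated 3′ UTR peak, chr2:13001821-13002020 (minus strand) had miR-124-3p at 3, 3 and 51. At chr16:18533195-18533332 (minus strand, opposite to Gnb1l) the highest scores were 3, 3 and 29, with miR-29 names in each list. Past the annotated end of Pura the stretch had 1, 1 and 36 peaks.

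In the mitochondrial genome, reps 5-7 had 10 intergenic peaks and reps 1-4 had 123, with 0 of 32 in excitatory neurons, which allows a share of up to 9.38%. The plus-strand stretch at positions 13568 to 14145, between annotated peaks of mt-Nd5 and mt-Cytb, held all 10 peaks of reps 5-7 and 58 of reps 1-4. It overlapped the RefSeq genes ND6, TrnE and CYTB, whose strand was not known here. Whether it lay in a gap between genes on the plus strand was therefore not settled. There miR-9-5p had a summed score of 9 in reps 5-7 and 237 in reps 1-4, and let-7c-5p had 4 and 141. miR-218-5p led in reps 5-7 with 11, against 57 in reps 1-4. On the minus strand reps 1-4 had 54 peaks, led by miR-124-3p at 84 and miR-129-2-3p at 66. They ran from position 11162 to 16153, over ND4, ND5, ND6, CYTB and several tRNA genes of strand not known here.

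In reps 1-4, stacking of many small RNAs on 1 site was less common at intergenic sites than in 3′ UTRs or coding sequence and more common than in introns. Overlapping peaks of reps 1-4 were merged into sites, and sites of a single region class were kept. At least 5 names were found at 126 of 9395 intergenic sites (1.34%, Wilson 95% interval 1.13 to 1.59). The share was 3.88% of 29164 sites in 3′ UTRs (difference -2.54 points, two-sided Fisher's exact test, p = 1.90e-39), 3.78% of 34579 coding sites (difference -2.44 points, p = 3.61e-38) and 0.316% of 103343 intronic sites (difference 1.02 points, p = 3.28e-34). At 10 or more names the difference from 3′ UTRs was -0.159 points and no longer passed Fisher's exact test (p = 0.0647). At 40 or more names there were 4 intergenic sites (0.0426%), against 3 in 3′ UTRs (0.0103%), 6 in coding sequence (0.0174%) and 4 in introns (0.00387%), and the largest single number was 213 names at an intergenic site, against 70 in 3′ UTRs, 60 in coding sequence and 76 in introns. The smaller lists ran the other way against exons, which was not tested. In reps 5-7, 6 of 98 intergenic sites were stacked (6.12%, interval 2.84 to 12.7), against 0.275% of sites in 3′ UTRs (0.0936 to 0.806), 0.394% in coding sequence and 0.495% in introns. In excitatory neurons 1 of 19 intergenic sites was stacked, the Gm36150 site (5.26%, interval 0.935 to 24.6), against 0.495% in 3′ UTRs, 0.302% in coding sequence and 4.17% in introns, each of these also a single site.

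**Figure D5:**
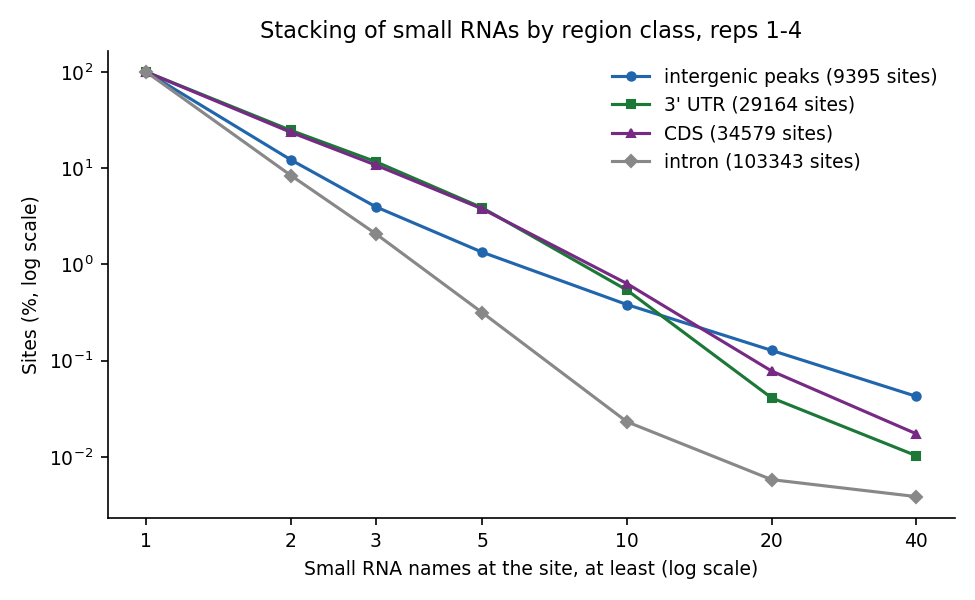
Share of sites (%, log scale) with at least the given number of small RNA names (x, log scale) in reps 1-4, for intergenic, 3′ UTR, coding and intronic sites. The intergenic line lies between the exonic and intronic lines at 5 names (1.34%) and above all 3 at 40 names (0.0426%).

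Not every stack was a mixture. Names were grouped by seed, or by family number and arm where no sequence was at hand, and 40 of the 126 stacked intergenic sites (31.7%, interval 24.3 to 40.3) had at least 80% of their score in a single group. In 3′ UTRs this was 30.2% (27.5 to 32.9), in coding sequence 39.9% (37.3 to 42.6) and in introns 26.6% (22.1 to 31.6), without a test. At chr15:45105913-45105979 (minus strand) 8 let-7 names held 88.7% of a score of 326. At chr15:9198525-9198551 (plus strand), inside the RefSeq span of Lmbrd2 but past its 3′-most annotated feature, 8 let-7 names held 95.3% of a score of 171. The 5 names at chr7:98633788-98633806 (plus strand) were all of the miR-30 family, with a score of 273. In contrast the leading group held 33.7% of the score at the chromosome 3 site and 14.2% at the chromosome 18 site.

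Intergenic peaks of the smaller lists were found again in reps 1-4 less often than other peaks of the same list. Most of this difference came from 1 stretch that reps 1-4 lack. A peak counted as found when a peak of the same small RNA on the same strand shared at least 1 base. In excitatory neurons 20 of 32 were found (62.5%, interval 45.3 to 77.1), against 602 of 629 other peaks outside rRNA and Cdr1 (95.7%, difference -33.2 points, two-sided Fisher's exact test, p = 3.04e-08). In reps 5-7 they were 123 of 152 (80.9%, 73.9 to 86.4), against 2423 of 2708 (89.5%, difference -8.55 points, Fisher's exact test, p = 0.00204). Leaving out the chromosome 16 minus-strand stretch that reps 1-4 lack, an alternative chosen after seeing the data, gave 20 of 23 in excitatory neurons (difference -8.75 points, Fisher's exact test, p = 0.0835) and 123 of 142 in reps 5-7 (difference -2.86 points, p = 0.266). With any small RNA counted as found, the same exclusion gave -11.0 points in excitatory neurons, still past the threshold (Fisher's exact test, p = 0.0159), and -2.87 points in reps 5-7 (p = 0.19). Between the small lists, 18 of 32 excitatory peaks were found in reps 5-7 (56.2%), against 323 of 629 others (51.4%, difference 4.90 points, interval -12.5 to 21.0, Fisher's exact test, p = 0.717). Each peak found was itself intergenic in the other list. All 13 excitatory peaks outside RefSeq gene spans were found in reps 1-4, and 5 of the 15 in same-strand spans, or 5 of 6 without the Gm36150 stretch. In the other direction 20 (0.162%) and 133 (1.08%) of the 12370 intergenic peaks of reps 1-4 were found in excitatory neurons and in reps 5-7. The share found in reps 5-7 was 1 of 5274 at a score of 3, 14 of 5770 from 4 to 9, 73 of 1234 from 10 to 99, and 45 of 92 (48.9%) at 100 or more. Neither these reverse shares nor their split by score was taken for the other peaks of reps 1-4. The smaller lists hold only 766 and 3611 peaks in all, so the low reverse shares cannot be read as a trait of intergenic peaks.

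How many small RNA names differed in share between intergenic and other peaks depended on the peaks compared with and on how peaks were counted. miR-124-3p made up 12 of 32 intergenic peaks in excitatory neurons (37.5%), 39 of 152 in reps 5-7 (25.7%) and 3715 of 12370 in reps 1-4, against 41.2%, 34.0% and 29.9% of other peaks. In reps 1-4, 303 names were found, 12 peaks were of tRNA fragments, and the next 4 were miR-9-5p at 11.6%, miR-26a-5p at 7.65%, miR-128-3p at 5.00% and miR-125b-5p at 4.45%. Of 129 names tested in reps 1-4, 2 (1.55%) had a higher share in intergenic peaks and 5 (3.88%) a lower one (two-sided Fisher's exact test, Benjamini-Hochberg adjusted p under 0.05). By Fisher's exact test those with a higher share were miR-136-5p (15 peaks, 0.121% against 0.0468%, adjusted p = 0.0389) and miR-434-3p (28 peaks, 0.226% against 0.12%, adjusted p = 0.045), both from the imprinted Dlk1-Dio3 region, as is miR-127-3p below. By the same exact test lower shares were found for miR-138-5p (0.93% against 1.44%, adjusted p = 1.22e-04), miR-127-3p (0.728% against 1.11%, adjusted p = 0.00185), let-7b-5p (0.647% against 0.989%, adjusted p = 0.00322), let-7c-5p (1.88% against 2.32%, adjusted p = 0.0349) and miR-24-3p (0.655% against 0.922%, adjusted p = 0.0389). With each name counted once per stretch or gene, 5 names were higher, neither of these 2 among them (Fisher's exact test, adjusted p = 0.687 and 0.523), and 61 were lower, all 5 of these among them. A stretch and a gene are unlike units, so these counts do not show what stacking alone did. Without the 10 stretches with the most peaks neither of the higher names passed the exact test, with differences of -0.00277 points for miR-136-5p (adjusted p = 1.00) and 0.092 points for miR-434-3p (adjusted p = 0.107). Against 3′ UTR peaks alone, 11 names were higher and 38 lower. Against intron peaks alone, 49 were higher and 5 lower, none of these 5 among the lower names listed above. The 5 names listed above as lower had higher shares than in intronic peaks, by 0.0453 to 0.548 points. Of these, let-7b-5p and let-7c-5p passed Fisher's exact test (adjusted p = 3.91e-04 and 2.88e-05).

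Names were also grouped into families that share a seed. The let-7 family made up 0 of 32 intergenic peaks in excitatory neurons, which allows a share of up to 9.38%, against 9.22% of other peaks of that list. It made up 8.55% in reps 5-7 (5.07 to 14.1) against 8.75%, and 7.24% in reps 1-4 (6.79 to 7.71) against 8.88%, where 2 of its 9 tested names were lower. The miR-29 family was at 6.25%, 14.5% and 7.45% of intergenic peaks, against 15.7%, 11.8% and 8.06% of other peaks in excitatory neurons, reps 5-7 and reps 1-4. The miR-26 family was at 6.25%, 6.58% and 7.77%, against 4.13%, 8.20% and 7.16%. The miR-181 family, with 1, 4 and 179 intergenic peaks, was at 3.12%, 2.63% and 1.45%, against 0.636%, 0.739% and 1.44%. No name of the miR-9-5p, miR-26, miR-29, miR-30, miR-124, miR-125, miR-128, miR-181 or miR-7 families passed the test in either direction.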

How the data were processed

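Per the labels' protocols, ultraviolet cross-linked forebrain homogenates (3 rounds) underwent Argonaute pull-down, ligation of small RNA to target RNA and paired 150 base sequencing. The authors deposited 4 annotated peak lists, each pooling the libraries of a group, with a score per peak. Per the deposited settings sheets, peaks needed at least 3 reads and 2 libraries. No aligner or peak caller is named there. The build, mm10, is from the submitters' processing notes.

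From these, intergenic rows were taken with the Cdr1 and Gm42418 intervals left out, joined into stretches (gaps of up to 1000 bases) or merged into sites (1 shared base), and placed against RefSeq genes of GRCm38.p6. Strand came from the promoter table or, failing that, the authors' annotation, for 29407 of 49980 genes, and matched in all 7914 genes that had both. A peak in several same-strand spans was given to the shortest, protein-coding first. Shares have Wilson 95% intervals and differences Newcombe intervals. Tests were two-sided Fisher's exact tests with Benjamini-Hochberg adjustment over region classes with at least 10 peaks or names with at least 50, at 0.05. The limit for a count of 0 is 3 counts. The score was used to rank and sum within a list. The name test was tested on simulated data with peaks drawn independently, so the effect of stacked peaks on it was not covered. Python 3.11.15, pandas 2.3.3, scipy 1.17.1 and statsmodels 0.14.6 were used.

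The members and lists were chosen with earlier results of these data known, and the RefSeq placement, the compact stretches and the single-family stacks were chosen after seeing the data. Named were, per list, the 10 stretches with the most peaks, the 5 highest peaks and the 10 leading small RNAs, stretches in 3 or more lists, and names past the test. Some of these are given as counts or ranges.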

Additional observations from a re-analysis of the deposited data

How the results depend on the processing

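No paired analysis was possible because each list pools its libraries and its columns carry no replicate, so no replicate could be left out either. Of the intergenic share, the difference between excitatory neurons and reps 1-4 was -2.21 points by distinct sites (then past the threshold), -2.38 by summed score and 0.288 at or above the median score. Between reps 5-7 and reps 1-4 it was -1.34 by sites, -1.47 with reps 1-4 reduced to its highest scores and -1.68 without the 10 stretches with the most peaks, past the threshold in each, -2.20 by summed score and 0.177 without rRNA and Cdr1. Between excitatory neurons and reps 5-7 it was 0.957 at or above the median score, 1.31 with the larger list reduced and 0.22 without the 10 stretches. The cause was not tested. Without the stretch that reps 1-4 lack, a setting added after seeing the data, overlap with reps 1-4 was no longer past the threshold for the same small RNA (-8.75 points in excitatory neurons, -2.86 in reps 5-7) or, in reps 5-7, for any small RNA (-2.87), but stayed past it in excitatory neurons for any small RNA (-11.0). Overlap between the small lists turned to -3.86 at or above the median score and -1.35 without the 10 stretches. Stacking kept its direction under all 6 settings against each class, with -0.159 points against 3′ UTRs at 10 names. Names higher in intergenic peaks numbered 2, and 5 with each name once per stretch or gene, 11 against 3′ UTRs alone and 49 against introns alone. Names lower numbered 5, and 61, 38, 1 and 8 with each name once, against 3′ UTRs alone, at or above the median score, and without the 10 stretches or without compact stretches (8, added after seeing the data). Against introns alone miR-138-5p (0.0886), let-7b-5p (0.265), miR-127-3p (0.0453), miR-24-3p (0.127) and let-7c-5p (0.548) turned to higher; miR-136-5p turned to -0.00277 without the 10 stretches and -0.00321 without compact ones. Of the 10 stretches with the most peaks, 6 stayed among the 10 when joined within 100 bases and 3 within 5000 bases. Depth per library is unknown, and the excitatory list's 32 peaks limit every share taken from it.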

Other observations

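The following stretches were chosen after their values were seen, because they ranked high by summed score but not by number of peaks. At chr2:69355568-69356518 (minus strand), 12952 bases from the nearest RefSeq gene Abcb11 and with no annotated peak within 50000 bases on the strand, reps 1-4 had 20 peaks with a summed score of 1783 and reps 5-7 had 1 peak. The 5 names miR-30a-5p to miR-30e-5p made up 10 of the 20 peaks and 94.0% of that score. They formed a pair of sites, the first at 69355599 to 69355625 with miR-30c-5p highest at 423, and the second at 69356510 to 69356518 with miR-30c-5p highest at 268.

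miR-690 had 13 intergenic peaks in reps 1-4 with a summed score of 1307. Of this, 87.0% came from 4 peaks in 2 stretches, chr17:27853085-27853148 and chr6:128760079-128760176, both on the minus strand. miR-9-5p was the other leading name in both: the highest miR-690 and miR-9-5p peaks scored 424 and 64 on chromosome 17, and 688 and 297 on chromosome 6. Both stretches also had a miR-9-5p peak in reps 5-7, with scores of 4 and 5. The 20 miR-690 peaks outside the intergenic class had a summed score of 769, with 689 in a single peak. Concentration of the miR-690 score in few peaks was thus not particular to intergenic peaks.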
